A study of Homo sapiens with 12 samples.

Results

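The transcripts of the spliceosome and of the SR and hnRNP proteins were followed in human cells that had lost their mitochondrial DNA (rho0) and in the parental cells that had kept it (rho+). The members were set by a rule on gene symbols, chosen with earlier results of these data known. They take in every probe set whose single gene symbol starts with SNRP, LSM, SF3A, SF3B, PRPF or HNRNP, or is SRSF followed by a number, U2AF1 or U2AF2, with pseudogenes left out. They came to 141 of the 22283 probe sets of the array and to 68 of its 11963 genes. The HNRNP genes gave 48 probe sets of 18 genes, SRSF 26 of 9, LSM 18 of 11, SNRP 16 of 11, PRPF 14 of 9, SF3B 9 of 5, SF3A 6 of 3 and U2AF 4 of 2. Another 19 probe sets that the annotation assigns to several genes, SRSF2 and SRSF9 among them, are not members.

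The 4 groups below were measured on Affymetrix oligonucleotide arrays, each with 3 arrays of independent RNA extractions: A549 rho0, A549 rho+, 143BTK- rho0 and 143BTK- rho+. A549 is a line of lung adenocarcinoma cells and 143BTK- a line of osteosarcoma cells that lacks thymidine kinase. The rho0 cells of both lines had been exposed to 50 ng/ml of ethidium bromide, which blocks replication of mitochondrial DNA, for 3 weeks. They were then pooled, so that each rho0 line is a mixed population and not 1 clone, and exposure to the drug cannot be told apart from the absence of mitochondrial DNA. No repeat of the ethidium treatment within a line is described. The p-values below therefore measure the spread among replicates of a rho0 line, and not among separate losses of mitochondrial DNA. All 4 groups shared a high-glucose medium with 10% serum, 1 mM pyruvate and 50 ug/ml uridine. The values are MAS5 signals, the brightness of a probe set on a linear scale, made equal in distribution over the 6 arrays of each line by the authors, so signals are compared only within a line.

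The spliceosome removes introns from pre-mRNA and is built on small nuclear ribonucleoproteins (snRNPs), each a small RNA with its proteins. The U1, U2, U4 and U5 RNAs carry a ring of Sm proteins, whereas the U6 RNA carries a ring of LSM proteins, and U4, U6 and U5 join the pre-mRNA together as the tri-snRNP. SR proteins bind exons and mostly favour the use of nearby splice sites, while many hnRNP proteins coat pre-mRNA and can repress them. All human cells with a nucleus use this machinery.

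Every array of a line had nearly the same median signal by construction (31.3 to 31.4 in A549, 27.6 in 143BTK-). The ratio of the 3' to the 5' probe sets of ACTB, which is higher where RNA is broken, was 8.81 on the A549 rho+ C array, against 0.861 to 2.83 on the other 11 arrays, and that of GAPDH was 0.772 to 1.34 on all 12. The keratin KRT8 was at 1141 to 2040 in A549 rho0 and 2215 to 4299 in A549 rho+, whereas KRT19 was at 2.1 to 5.5 in A549 rho0 and 373 to 471 in A549 rho+, and EPCAM at 0.4 to 12.8 over both. In 143BTK-, vimentin (VIM) and SPARC were at 5598 to 7106 and 491 to 805, but the collagen COL1A2 was only at 5.9 to 21.1. Neither kind of marker was confined to its line. VIM was at 2447 to 4733 in A549, and the keratin KRT18 at 2365 to 9408 in A549 and 2832 to 5027 in 143BTK-. The mesenchymal gene FN1 was at 1675 to 2956 in A549 and 157 to 687 in 143BTK-. The leukocyte gene PTPRC was at 0.9 to 9.2 on all arrays. In such bulk samples, fewer cells that express a gene and less of its RNA in each cell cannot be told apart.

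In A549, the spliceosome and hnRNP transcripts lay mostly below the parental level. Taking 1 probe set a gene, the brightest, the log2 change of rho0 over rho+ had a median of −0.27 over 67 genes, against −0.03 over all genes, and 47 of the 67 were below 0, against 52.1% of all genes. Of the 141 probe sets, 125 passed the filter on low signals, and PRPF39 was the only gene with none. At an adjusted p under 0.05 (limma), 13 of the 125 changed, which is 10.4%, where 10.9% of all probe sets did. By direction, 9 fell (7.2%, against 5.2% of all) and 4 rose (3.2%, against 5.66% of all). Without adjustment, 34 had a p under 0.05 (27.2%, against 27.4% of all), 24 of them lower (19.2%, against 13.4%) and 10 higher (8%, against 14%). In 29 of the 125 (23.2%) all 3 rho0 arrays were below all 3 rho+ arrays, against 16.1% of all probe sets, and in 6 (4.8%) they were above, against 15.8%. The share that changed was therefore near the background, while the changes pointed down more often than up.

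The number of calls in A549 turned on single arrays. It was 4 without rho0 A (LSM1, LSM5, PRPF3 and PRPF4 kept), where 3.3% of all probe sets were called, 4 without rho0 B (LSM1, LSM5, PRPF4 and SNRPE kept), where 4.87% were, and 2 without rho+ B (LSM1 and LSM5 kept), where 3.99% were. It was 7 without rho+ A (7.44% of all probe sets), where SNRPB, SNRPE, PRPF3, LSM4, HNRNPF, SRSF8 and 1 probe set of HNRNPA3 were lost. Without rho0 C it was 14 (10.2% of all), with PRPF6, LSM4, HNRNPF, SRSF8 and that HNRNPA3 probe set lost. Without rho+ C, the array with the ACTB ratio of 8.81, 22 members were called, 14 lower and 8 higher, and 14.6% of all probe sets. The calls of LSM1 and LSM5 held in all 16 and all 15 of their alternative fits, that of PRPF4 in 15 of 16 and that of SNRPB in 11 of 16.

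In 143BTK-, 130 members passed the filter and limma called 0 of them, as it called 0% of all probe sets at an adjusted p under 0.05. Without adjustment, 11 members (8.46%) had a p under 0.05, against 8.39% of all probe sets, 8 of them lower (6.15%, against 4.6%) and 3 higher (2.31%, against 3.79%). All 3 rho0 arrays were below all 3 rho+ arrays in 10 members (7.69%, against 7.47% of all) and above them in 5 (3.85%, against 7.37%). The median log2 change over the 68 genes was −0.09, against −0.0025 over all genes, with 39 of 68 below 0, against 50.3% of all genes. The median SD of a member within a group was 0.39 in 143BTK- rho0 and 0.29 in 143BTK- rho+ on the log2 scale, and 0.26 and 0.29 in A549 rho0 and A549 rho+.

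**Figure D1:**
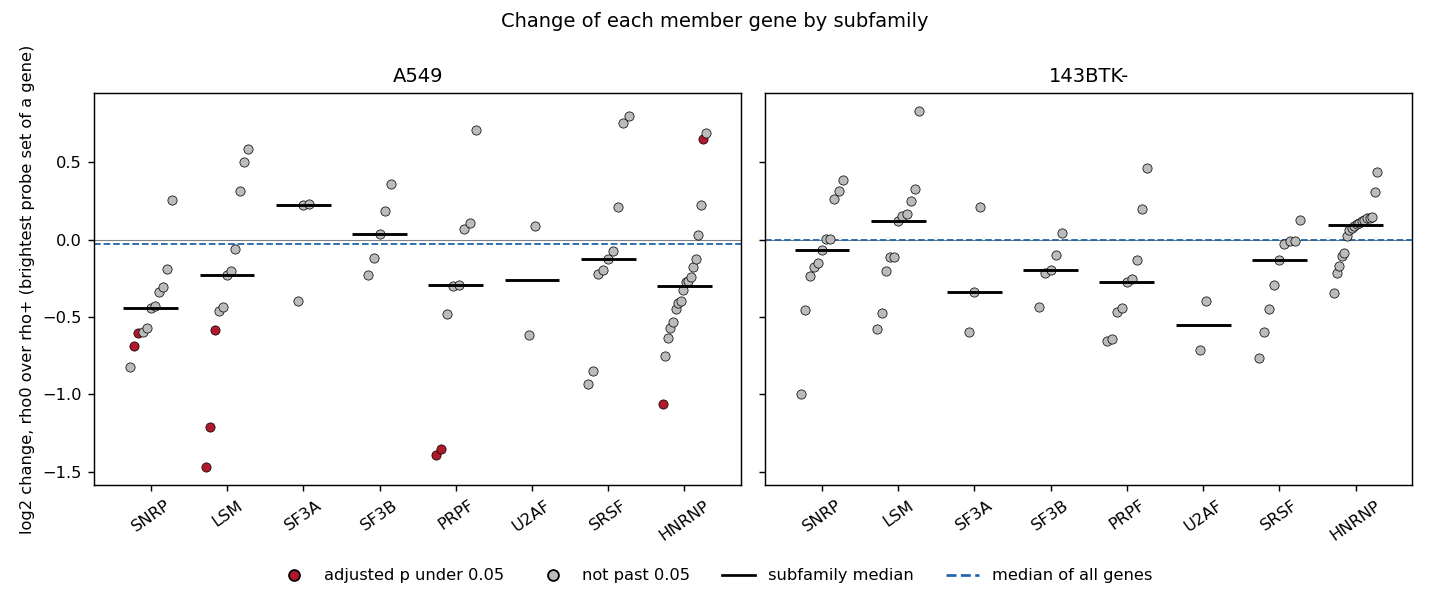
Log2 change of rho0 over rho+ of each member gene (points, brightest probe set) by subfamily in A549 (left) and 143BTK- (right), with subfamily medians as black lines, the median of all genes dashed, and genes of an adjusted p under 0.05 from limma in red. In A549 the SNRP median lies at −0.44 and the HNRNP median at −0.30, while in 143BTK- they lie at −0.07 and 0.10 and no gene is red.

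Both lines were then fitted together, over all 12 arrays, for the change they share on average and for the difference of their changes. In the mean change, 8 of 125 members were called (6.4%), against 3.7% of all probe sets, 6 lower (4.8%, against 1.73%) and 2 higher (1.6%, against 1.97%). Without adjustment 18 were lower (14.4%, against 10.1% of all) and 5 higher (4%, against 10.5%), together 18.4%, against 20.6%. Those that fell after adjustment were SNRPD3, both probe sets of SNRPB, PRPF3, PRPF4 and LSM5, and those that rose were HNRNPF and a probe set of PRPF6 that stood at the lowest signals in A549 rho+. In the difference, A549 minus 143BTK-, 2 members were called (1.6%, against 1.95% of all probe sets), both with the lower change in A549 (1.6%, against 0.89%) and 0 with the higher (against 1.06%). Without adjustment 9 differences were negative (7.2%, against 7.76%) and 5 positive (4%, against 9.54%), together 11.2%, against 17.3%. The median mean change over 67 genes was −0.17, against −0.02 over all genes, and 51 of the 67 were below 0, against 53.0% of all genes. The calls of SNRPD3 and PRPF4 held in all 22 of their alternative fits. The number of calls was 2, SNRPD3 and PRPF4, without A549 rho0 A, rho0 B or rho+ B (0.827%, 1.27% and 1.1% of all probe sets). It was 5 and 4 without A549 rho0 C and rho+ A (4% and 2.36% of all). Leaving out 143BTK- rho0 A, rho+ A or rho+ B gave 3 calls (1.81%, 1.85% and 1.15% of all). Without 143BTK- rho0 B or rho0 C the number was 4 (2.63% and 3.22% of all). SNRPB, SNRPD3, PRPF3 and PRPF4 had been picked out by the study on these same samples. They hold all the member probe sets that fell after adjustment except that of LSM5. Neither their direction nor the share of members called lower is therefore independent evidence.

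The Sm core is the ring of 7 proteins that closes around the U1, U2, U4 and U5 RNAs during snRNP assembly. In A549, all 7 member genes had a log2 change below 0 (median −0.57, from −0.82 in SNRPB to −0.19 in SNRPD2), as did 52.1% of all genes. By their brightest probe set 2 of the 7, SNRPE and SNRPG, fell (28.6%, against 5.95% of all genes). In 143BTK- the median was 0.0025, with 3 of 7 below 0. The ring therefore had no single direction over both lines: SNRPD3 and SNRPB were low in the rho0 cells of each, SNRPE was low in one and high in the other, and SNRPG was apart in A549 only, with overlapping arrays in 143BTK-. SNRPN, the gene of Sm-N, is read only by probe sets of several genes and is not a member. Those it shares with SNURF alone rose in A549 (log2 changes of 0.70 and 1.01), and its others overlapped there.

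SNRPD3 encodes the Sm-D3 protein (chromosome 22, 24555650 to 24574971 of GRCh38.p14, as for all positions below). Its signal was 332, 301 and 403 on the A549 rho0 arrays, against 562, 568 and 413 on the A549 rho+ arrays. It was 409, 345 and 474 on the 143BTK- rho0 arrays, against 786, 802 and 839 on the 143BTK- rho+ arrays. In both lines every rho0 array was below every rho+ array, although A549 rho0 C and rho+ C were close. The mean log2 change was −0.78 ± 0.14 (SE), that is 1.72-fold lower (adjusted p = 0.0114 from limma, exact permutation p = 0.005, two-sided, the smallest that 400 arrangements of the arrays within the lines allow). Within 1 line such a test cannot go below 0.1, so none is given there. The change was −0.57 ± 0.20 in A549 and −0.99 ± 0.20 in 143BTK-, 1.48-fold and 1.99-fold lower, with adjusted p of 0.0983 and 0.31 from limma. Chromosome 22 as a whole had a median of −0.25 in 143BTK- and −0.04 in A549, and the mean change was called with changes centred on chromosome medians too.

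SNRPB encodes the Sm proteins B and B' (chromosome 20, 2461642 to 2470789). The dimmer of its probe sets read 622, 495 and 884 in A549 rho0, against 1229, 1271 and 1064 in A549 rho+. In 143BTK- it read 907, 1105 and 930 in rho0, against 1624, 1185 and 1374 in rho+. The groups were apart in both lines, with 143BTK- rho0 B and rho+ B nearest each other. The mean log2 change was −0.69 ± 0.15 (SE, adjusted p = 0.0215 from limma, exact permutation p = 0.005), with −0.87 ± 0.21 in A549 (adjusted p = 0.0289 from limma) and −0.50 ± 0.18 in 143BTK- (adjusted p = 0.558 from limma). The brighter probe set of the gene had a mean log2 change of −0.64 ± 0.16 (adjusted p = 0.0456 from limma), but A549 rho0 C at 1802 lay above A549 rho+ C at 1796. The call in the mean change held in 15 of 22 alternative fits for the dimmer probe set and in 7 of 21 for the brighter.

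SNRPE, whose product forms part of the ring beside Sm-F and Sm-G (chromosome 1, 203861599 to 203871152), had opposite directions in the lines. It was at 819, 999 and 813 in A549 rho0, against 1466, 1460 and 1291 in A549 rho+. It was at 1231, 1250 and 1189 in 143BTK- rho0, against 910, 1014 and 889 in 143BTK- rho+. Every rho0 array was below the rho+ arrays in A549 and above them in 143BTK-. The log2 change was −0.68 ± 0.15 (SE) in A549, where the gene fell (adjusted p = 0.0215 from limma), and 0.39 ± 0.16 in 143BTK- (adjusted p = 0.577 from limma). The difference, A549 minus 143BTK-, was −1.07 ± 0.21 (adjusted p = 0.0206 from limma). It passed in 17 of 21 alternative fits, and missed the threshold without A549 rho0 A (adjusted p = 0.0699 from limma), A549 rho+ B (0.0675) or 143BTK- rho0 A (0.0542), and in the fit with no intensity trend. A dimmer probe set had a difference of the same sign, −1.05, with a standard error that did not let it pass (adjusted p = 0.56 from limma).

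SNRPG, the gene of Sm-G (chromosome 2, 70281362 to 70293740), was at 937, 953 and 1004 in A549 rho0, against 1406, 1475 and 1524 in A549 rho+, and the groups were far apart. In 143BTK- it was at 1648, 1348 and 1552 in rho0, against 1429, 1662 and 1439 in rho+, where the arrays overlapped. The log2 change was −0.61 ± 0.14 in A549 (SE, adjusted p = 0.0224 from limma) and 0.0045 ± 0.16 in 143BTK-. The difference of its changes was not called (−0.61 ± 0.20, adjusted p = 0.128 from limma). SNRPD1, SNRPD2 and SNRPF had log2 changes of −0.44, −0.19 and −0.34 in A549 and of −0.07, 0.0025 and 0.31 in 143BTK-, none of them past the threshold.

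**Figure D2:**
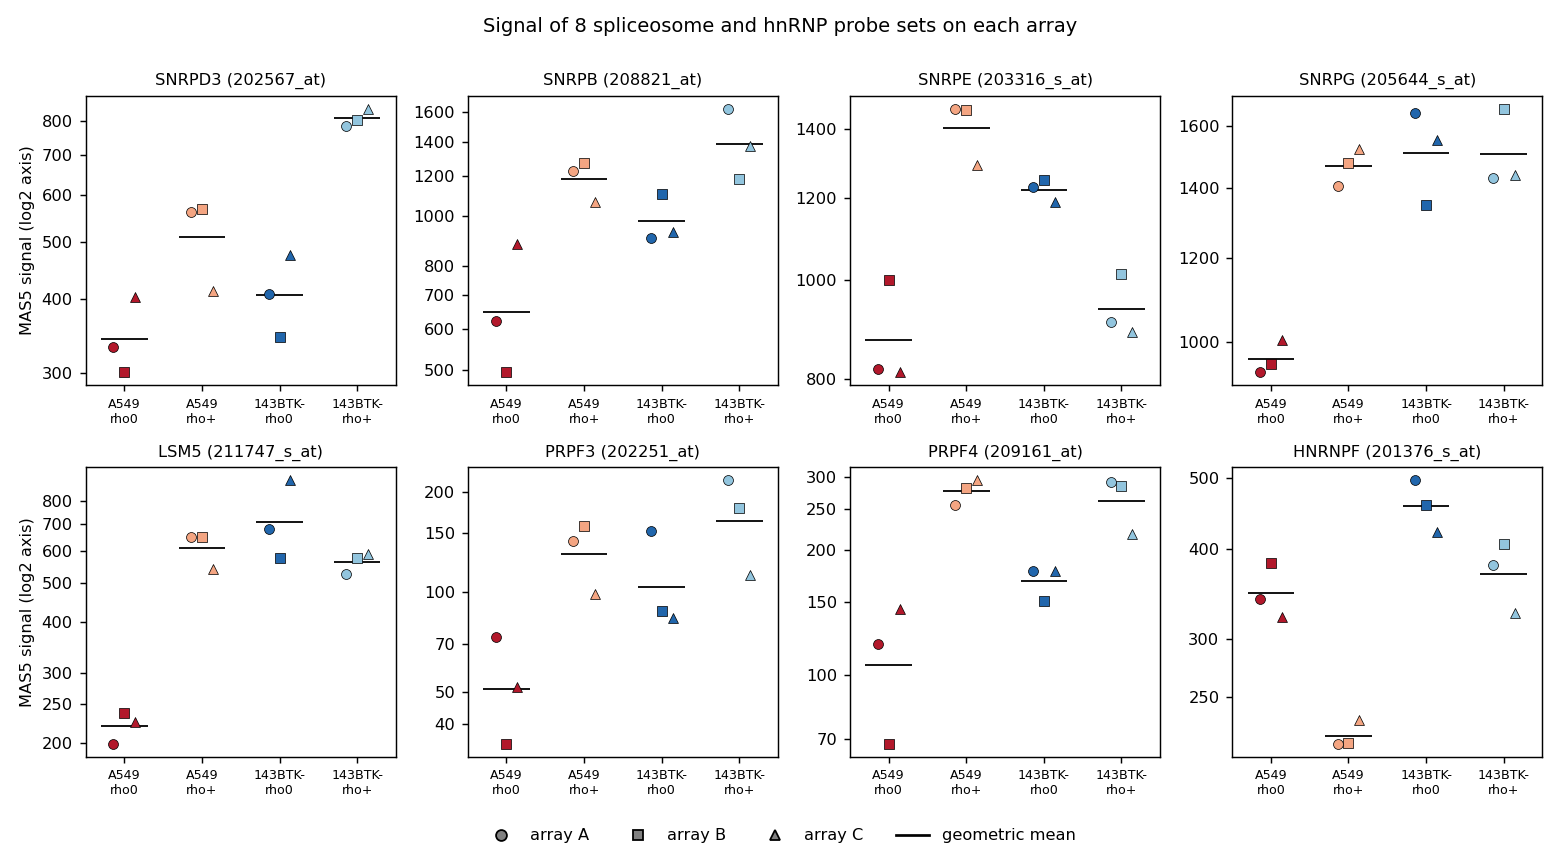
MAS5 signal (log2 axis) on each array of 8 probe sets, with 3 arrays a group (circle A, square B, triangle C) and the geometric mean of a group as a line. SNRPD3, SNRPB (dimmer probe set) and PRPF4 are lower on every rho0 array of both lines, HNRNPF is higher on every rho0 array, and LSM5 and SNRPE are lower in A549 rho0 only.

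The 250 bases before the start of SNRPB, SNRPD3 and PRPF4 are shown. These genes were called lower in the mean change, with a table start at the outer end of the RefSeq gene and no other start far from it. LSM5 was called lower there too, but its starts lie further apart and it is not shown. The sequences are RefSeq promoters of GRCh38.p14, read 5′ to 3′ on the strand of the gene. Capitals mark CCGGAAG on either strand, a form of the sites that factors of the ETS family bind. The windows are chr20:2470790-2471039 (minus strand), chr22:24555400-24555649 (plus strand) and chr9:113275408-113275657 (plus strand).
SNRPB: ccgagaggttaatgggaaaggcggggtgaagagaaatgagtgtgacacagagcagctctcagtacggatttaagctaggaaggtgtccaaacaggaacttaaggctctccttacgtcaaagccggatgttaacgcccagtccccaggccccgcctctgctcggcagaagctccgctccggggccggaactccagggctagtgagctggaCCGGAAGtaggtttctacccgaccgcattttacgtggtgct
SNRPD3: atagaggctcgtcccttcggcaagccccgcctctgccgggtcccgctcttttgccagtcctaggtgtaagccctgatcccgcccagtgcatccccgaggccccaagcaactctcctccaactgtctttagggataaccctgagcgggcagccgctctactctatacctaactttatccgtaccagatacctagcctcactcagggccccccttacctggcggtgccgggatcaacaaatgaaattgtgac
PRPF4: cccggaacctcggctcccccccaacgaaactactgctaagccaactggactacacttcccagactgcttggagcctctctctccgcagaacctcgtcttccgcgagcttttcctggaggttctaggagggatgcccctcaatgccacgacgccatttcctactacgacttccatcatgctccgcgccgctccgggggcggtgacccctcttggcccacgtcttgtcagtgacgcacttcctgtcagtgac
The SNRPB window holds the letters once, 41 bases before the start, and the other windows shown do not hold them. The LSM5 window holds them once, 227 bases before the outer start. Over the genes whose table start is the outer end of the RefSeq gene, CCGGAAG was in 18 of 56 member windows (32.1%), against 13.1% of the 8375 array genes and 8.81% of all 24885 genes. The E-box CACGTG was in 6 of the 56 (10.7%), against 8.42% of array genes. Both strands were searched for each, and neither motif contains the other. A match describes the letters only, and other forms of an ETS site were not searched. Of the 68 genes, 60 were in the table.

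The other SNRP genes encode proteins of only the U1 or the U2 particle. SNRPA and SNRPC belong to U1, which marks the 5' splice site, and SNRPA1 and SNRPB2 to U2, which marks the branch point. None of them passed in a line, in the mean change or in the difference. All 3 probe sets of SNRPA1 had every A549 rho0 array below every A549 rho+ array (log2 changes of −0.61, −0.51 and −0.60, adjusted p of 0.103 to 0.194 from limma), while in 143BTK- they were at −0.42, 0.0049 and 0.27. SNRPC had −0.43 in A549 and −0.15 in 143BTK-, SNRPA −0.30 and −0.24, and SNRPB2 0.25 and −0.18.

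LSM2 to LSM8 form the ring on the 3' end of U6 RNA. In A549 their brightest probe sets had a median log2 change of −0.23, 5 of 7 below 0 (against 52.1% of all genes), and LSM4 and LSM5 fell (28.6%, against 5.95% of all genes). In 143BTK- the median was −0.11, with 4 of 7 below 0. LSM5 (chromosome 7, 32485338 to 32495283) had the lowest change of all members in A549. Its brightest probe set was at 199.8, 238 and 227 in A549 rho0, against 652, 650 and 543 in A549 rho+. The groups were far apart in A549. In 143BTK- it was at 682, 579 and 900 in rho0, against 528, 577 and 592 in rho+, and the groups overlapped.

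The LSM5 log2 change was −1.47 ± 0.18 (SE) in A549, 2.77-fold lower (adjusted p = 0.00122 from limma), and 0.33 ± 0.21 in 143BTK- (adjusted p = 0.725 from limma). The difference was −1.80 ± 0.27 (adjusted p = 0.00483 from limma), the larger of the 2 differences that passed. It passed in all 21 alternative fits, with values from −1.98 to −1.43. The mean change of −0.57 therefore joins unlike values, and its exact permutation p was 0.095. Of the 2 dimmer probe sets, one was at 12.1, 12 and 15.2 in A549 rho0, against 30.5, 20.9 and 40.7 in A549 rho+ (log2 change −1.19, adjusted p = 0.11 from limma), and the other had −0.69 in A549 and −0.35 in 143BTK-. Their means in A549 rho0, 13.1 and 16.3, lay under 19.1, the lowest mean signal that the filter kept in A549, so these sizes are not measured well. Chromosome 7 as a whole had a median of −0.28 in A549 and 0.10 in 143BTK-.

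LSM4 (chromosome 19, 18306236 to 18323076) was at 401, 454 and 460 in A549 rho0, against 666, 597 and 705 in A549 rho+ (log2 change −0.58 ± 0.17, SE, adjusted p = 0.0496 from limma). The groups were apart, but the call stood at the threshold and held in 3 of 15 alternative fits. A dimmer probe set of LSM4 overlapped between the groups (369, 251 and 427, against 613, 376 and 145, log2 change 0.08). LSM6 was the 1 gene of the ring with rho0 arrays below rho+ arrays in both lines. It was at 68.6, 69.8 and 72.5 in A549 rho0, against 75, 84.9 and 83 in A549 rho+, and at 108, 119 and 106 in 143BTK- rho0, against 140, 190 and 136 in 143BTK- rho+. Its mean log2 change was small, −0.34 ± 0.15 (SE), and was not called (adjusted p = 0.233 from limma), although the exact permutation p was 0.005.

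LSM8, the subunit that sets the U6 ring apart from the cytoplasmic LSM ring, had the highest log2 change of all members in 143BTK-. It was at 166, 170 and 122 in 143BTK- rho0, against 63.3, 100.5 and 95.8 in 143BTK- rho+, with no overlap (0.83 ± 0.28, SE, unadjusted p = 0.0161 and adjusted p = 0.54 from limma). In A549 it was at 180, 109 and 139 in rho0, against 162, 154 and 174 in rho+ (−0.23). LSM2, LSM3 and LSM7 had 0.58, −0.46 and 0.32 in A549 and −0.11, −0.11 and −0.20 in 143BTK-, and none was called.

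**Figure D3:**
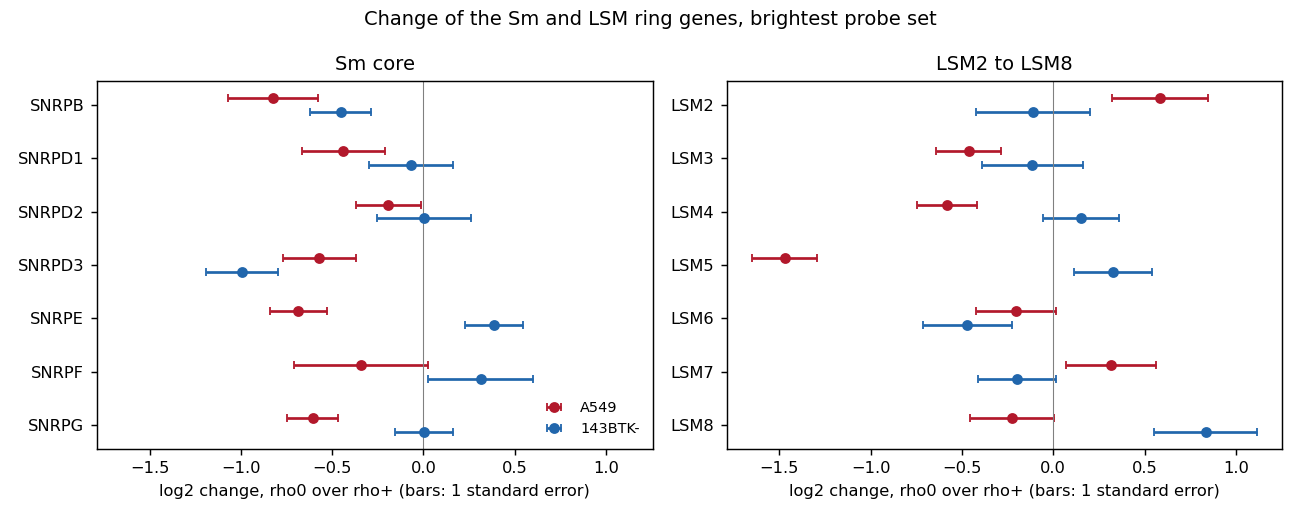
Log2 change of rho0 over rho+ (brightest probe set, bars of 1 standard error) of the Sm core genes (left) and of LSM2 to LSM8 (right) in A549 (red) and 143BTK- (blue). All Sm core genes shown lie below 0 in A549, SNRPE lies on opposite sides of 0 in the lines (−0.68 and 0.39), and so does LSM5 (−1.47 and 0.33). SNRPN, read only by probe sets of several genes, is not shown.

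Of the LSM genes outside this ring, LSM1 fell in A549. LSM1 takes the place of LSM8 in the cytoplasmic ring, which starts the decay of mRNA and not its splicing. It was at 183, 124 and 175 in A549 rho0, against 346, 404 and 352 in A549 rho+, that is 2.31-fold lower with no overlap (log2 change −1.21 ± 0.21, SE, adjusted p = 0.00726 from limma). In 143BTK- it was at 332, 213 and 281 in rho0, against 312, 212 and 179 in rho+ (0.25 ± 0.28). The difference between the lines, −1.46 ± 0.36, lay just outside the threshold (adjusted p = 0.0514 from limma). LSM12 had every A549 rho0 array above every A549 rho+ array (408, 362 and 310, against 302, 269 and 198, log2 change 0.50, adjusted p = 0.166 from limma). LSM14A and LSM14B, had −0.06 and −0.43 in A549 and 0.12 and −0.57 in 143BTK-.

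The PRPF proteins are named after yeast pre-mRNA processing mutants. PRPF3 and PRPF4 bind each other on the U4/U6 duplex, PRPF31 holds the same particle, and PRPF6 and PRPF8 belong to U5, PRPF8 at the catalytic centre. PRPF4 (chromosome 9, 113275658 to 113292905) was at 119, 68.3 and 144 in A549 rho0, against 256, 282 and 294 in A549 rho+. It was at 177, 151 and 178 in 143BTK- rho0, against 292, 284 and 218 in 143BTK- rho+. The groups were apart in both lines, most in A549. The mean log2 change was −1.02 ± 0.19 (SE), 2.03-fold lower (adjusted p = 0.0128 from limma, exact permutation p = 0.005), with −1.39 ± 0.28 in A549 (adjusted p = 0.0124 from limma) and −0.64 ± 0.23 in 143BTK- (adjusted p = 0.557 from limma). Without A549 rho+ B the A549 call was lost (adjusted p = 0.054 from limma).

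The dimmer probe set of PRPF4 had −0.69 and −0.67 in A549 and 143BTK-. In A549 the arrays overlapped, since rho0 was at 90.8, 64.8 and 78.3 and rho+ at 203, 174 and 54.7, the last being the C array with the high ACTB ratio. Chromosome 9 had medians of −0.31 in A549 and −0.18 in 143BTK-, and with changes centred on chromosome medians PRPF4 was still called in the mean change. PRPF3 (chromosome 1, 150321468 to 150353233) was at 73.1, 35 and 51.7 in A549 rho0, against 142, 158 and 98.5 in A549 rho+, with no overlap. In 143BTK- it was at 153, 87.6 and 83.6 in rho0, against 216, 179 and 112 in rho+, and rho0 A lay above rho+ C. The mean log2 change of PRPF3 was −1.004 ± 0.24 (SE, adjusted p = 0.039 from limma, exact permutation p = 0.015), and the call held in 9 of 21 alternative fits, at an adjusted p of 0.0199 to 0.102.

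PRPF6 rose in A549 by the dimmer of its probe sets, which was at 67.5, 34.7 and 46.8 in A549 rho0, against 18.1, 13.7 and 5.7 in A549 rho+ (log2 change 2.09 ± 0.51, SE, adjusted p = 0.0273 from limma). The groups were apart, but the rho+ values all lay under 19.1, so that the probe set was kept through its rho0 values and the size of the change is not measured well, and the ending _x_at of its name marks probes that may match other transcripts. The brighter probe set was at 193, 273 and 211 in A549 rho0, against 211, 73.3 and 165 in A549 rho+, with overlap (0.71, adjusted p = 0.229 from limma). PRPF8 had −0.48 in A549 and −0.44 in 143BTK- (adjusted p of the mean change = 0.0939 from limma), PRPF31 −0.30 and 0.46 by its brighter probe set, PRPF18 0.11 and −0.13, PRPF19 −0.29 and −0.25, and PRPF38B 0.07 and −0.47. None of these passed.

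SF3A and SF3B are the complexes that fasten U2 to the branch point, and U2AF1 and U2AF2 read the 3' splice site before U2 arrives. None of the 8 SF3 genes and neither U2AF gene passed in any comparison on all arrays. SF3A1, SF3A2 and SF3A3 had log2 changes of 0.23, 0.23 and −0.40 in A549 and of −0.60, 0.21 and −0.34 in 143BTK-. SF3A1 was at 307, 251 and 448 in 143BTK- rho0, against 519, 437 and 529 in 143BTK- rho+ (unadjusted p = 0.0429 from limma), with rho0 C above rho+ B. The 5 SF3B genes stayed between −0.23 (SF3B1, the scaffold around the branch point) and 0.36 (SF3B3) in A549 and between −0.43 (SF3B3) and 0.04 (SF3B2) in 143BTK-, with SF3B4 at 0.04 and −0.10 and SF3B5 at 0.19 and −0.22. 1 array carried much of the SF3B3 value. It was at 173, 179 and 228 in A549 rho0, against 97.9, 112 and 305 in A549 rho+, and without rho+ C it was called higher.

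U2AF1, the small subunit, was at 381, 365 and 452 in A549 rho0, against 619, 765 and 477 in A549 rho+, with no overlap (log2 change −0.61, adjusted p = 0.0867 from limma). In 143BTK- it was at 692, 923 and 1033 in rho0, against 1394, 961 and 1118 in rho+ (−0.39). The mean change, −0.50, was not called (adjusted p = 0.0876 from limma, exact permutation p = 0.015). Without A549 rho+ C, U2AF1 was called lower, both in A549 and over both lines. With changes centred on chromosome medians it was called in A549 only. U2AF2, the large subunit, had 0.09 in A549 and −0.71 in 143BTK- by its brightest probe set, with groups that overlapped in both.

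The SR genes varied much between arrays of a group. In A549 the 9 genes ran from −0.93 (SRSF10) to 0.80 (SRSF5), with a median of −0.13 that turned to 0.06 when all kept probe sets were counted. Only a probe set of SRSF8 was called in A549. This dimmer SRSF8 probe set was at 120, 112 and 142 in A549 rho0, against 38.6, 47.3 and 87.6 in A549 rho+ (log2 change 1.19 ± 0.31, SE, adjusted p = 0.0371 from limma), a call that held in 6 of 14 alternative fits, but the brighter one was at 296, 283 and 235, against 237, 239 and 225 (0.21). SRSF1, the founding SR protein, had −0.85 by its brightest probe set (276, 210 and 399 in A549 rho0, against 433, 588 and 531 in A549 rho+, adjusted p = 0.0539 from limma), but 0.47 and −0.16 by its other kept probe sets.

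SRSF10, which becomes a repressor of splicing when it loses phosphate, had −0.93 by its brightest probe set (64.5, 93.4 and 107 in A549 rho0, against 125, 171 and 210 in A549 rho+, adjusted p = 0.0569 from limma) and −0.42, −0.32 and 0.36 by its other kept probe sets, whose groups overlapped. SRSF5 and SRSF6 pointed up in A549, at 0.80 and 0.75, and did not pass, and in both the rho+ C array lay among the rho0 arrays. SRSF5 was at 831, 858 and 546 in A549 rho0, against 317, 367 and 631 in A549 rho+, and SRSF6 at 539, 657 and 429, against 247, 244 and 525. Without rho+ C both were called.

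In 143BTK- the SR genes varied widely between the arrays of a state, and 8 of 9 had a log2 change below 0. SRSF1 was at 671, 173 and 641 in 143BTK- rho0, against 637, 552 and 217 in 143BTK- rho+. SRSF3, the smallest SR protein, was at 1485, 729 and 1322, against 1618, 1403 and 592, by a probe set other than the one taken for the gene. SRSF6 was at 491, 246 and 494, against 566, 466 and 239. In each, 1 array of either state, rho0 B and rho+ C, was low. Of the 23 SRSF probe sets kept, 16 (69.6%) had these as the lowest 2 of the 6 arrays of the line, against 26.9% of the 130 members and 14% of all probe sets, and their median log2 signal on the 2 arrays was −0.92 relative to the other 4. As the highest 2 they stood in 0 of the 23, against 5.38% of the members and 13% of all probe sets. Over all kept probe sets, the deviations of the 2 arrays from their group means had a correlation of 0.389. This was the highest among the pairs of a rho0 and a rho+ array of the line, which ran from −0.469. The A arrays, at 0.359, were close to it.

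The hnRNP gene HNRNPM shared this pattern (1351, 498 and 1586 in 143BTK- rho0, against 1353, 1156 and 502 in 143BTK- rho+), while HNRNPA1 had the opposite one (493, 1638 and 586, against 432, 440 and 999). These 2 arrays were singled out after their values were seen. The ACTB ratio was 1.501 on rho0 B, the highest of the line, and 0.905 on rho+ C, against 0.861 to 1.29 on the other 4, and its part in the pattern was not tested. Without both, the SRSF median in 143BTK- was −0.06, against −0.13 with them. With 1 array left out it ran from −0.44 (without rho0 C) to 0.27 (without rho0 B), and it was also above 0, at 0.04, without rho+ B. Without both arrays, 0 members were called in 143BTK- and 4 in the mean change (0% and 3.68% of all probe sets). SRSF4 was the SR gene with groups apart in 143BTK- (115, 186 and 144 in rho0, against 221, 260 and 263 in rho+, log2 change −0.76 ± 0.25, SE, unadjusted p = 0.0148 from limma), and it did not pass after adjustment. SRSF3, SRSF7 and SRSF11 had −0.13, −0.07 and −0.22 in A549 and 0.13, −0.45 and −0.29 in 143BTK- by their brightest probe sets.

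**Figure D4:**
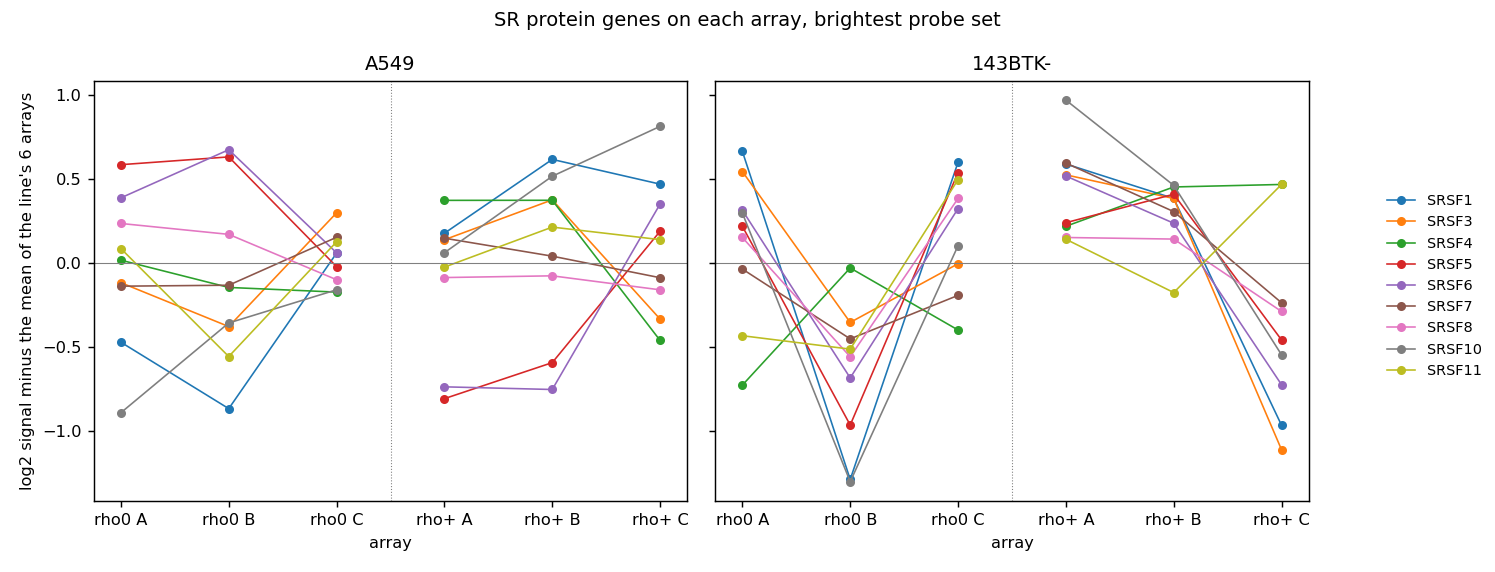
Log2 signal of 9 SR protein genes (brightest probe set, 1 colour a gene) on each array, relative to the mean of the 6 arrays of A549 (left) and 143BTK- (right), rho0 before rho+ in each, where lines only join the points of a gene within a group. In 143BTK- most genes dip on rho0 B and on rho+ C, and in A549 SRSF5 and SRSF6 are low on rho+ A and B but not on rho+ C.

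The hnRNP genes had a median of −0.30 in A549, with 14 of 18 below 0, and of 0.10 in 143BTK-, with 5 of 18 below 0, where it turned to −0.06 without 143BTK- rho+ C. HNRNPF, which binds G-rich stretches of pre-mRNA (chromosome 10, 43385618 to 43409186), was the 1 hnRNP gene that rose in the mean change. It was at 341, 382 and 322 in A549 rho0, against 216, 216 and 233 in A549 rho+. It was at 496, 460 and 421 in 143BTK- rho0, against 379, 406 and 327 in 143BTK- rho+. Every rho0 array was above every rho+ array of its line. The mean log2 change was 0.48 ± 0.13 (SE, adjusted p = 0.0495 from limma, exact permutation p = 0.005), with 0.65 ± 0.18 in A549 (adjusted p = 0.0437 from limma) and 0.31 ± 0.20 in 143BTK-. The call in the mean change lay at the threshold and held in 3 of 21 alternative fits, where the value stayed between 0.40 and 0.52.

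HNRNPA3, an hnRNP protein of the A/B type (chromosome 2, 177212794 to 177223959), was called in A549 in both directions. Its brightest probe set was at 84.5, 76 and 112 in A549 rho0, against 166, 202 and 196 in A549 rho+ (log2 change −1.06 ± 0.23, SE, adjusted p = 0.0173 from limma). Its dimmest probe set was at 52.5, 50.9 and 45.2 in A549 rho0, against 26.1, 24.7 and 20.5 in A549 rho+ (1.06 ± 0.30, adjusted p = 0.0475 from limma). The groups were apart in each, the first with rho0 below and the second with rho0 above. The call of the dimmest held in 7 of 15 alternative fits and that of the brightest in 13 of 16. The A549 rho+ values of the dimmest lay near 19.1, the lowest mean signal that the filter kept in A549, so its size is less precise. The middle one overlapped (0.15), and 3 probe sets that the annotation gives to HNRNPA3 and a pseudogene together had −0.47, −0.69 and −0.83. Which transcripts each probe set reads was not examined. In 143BTK- the 3 member probe sets lay between 0.03 and 0.27.

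**Figure D5:**
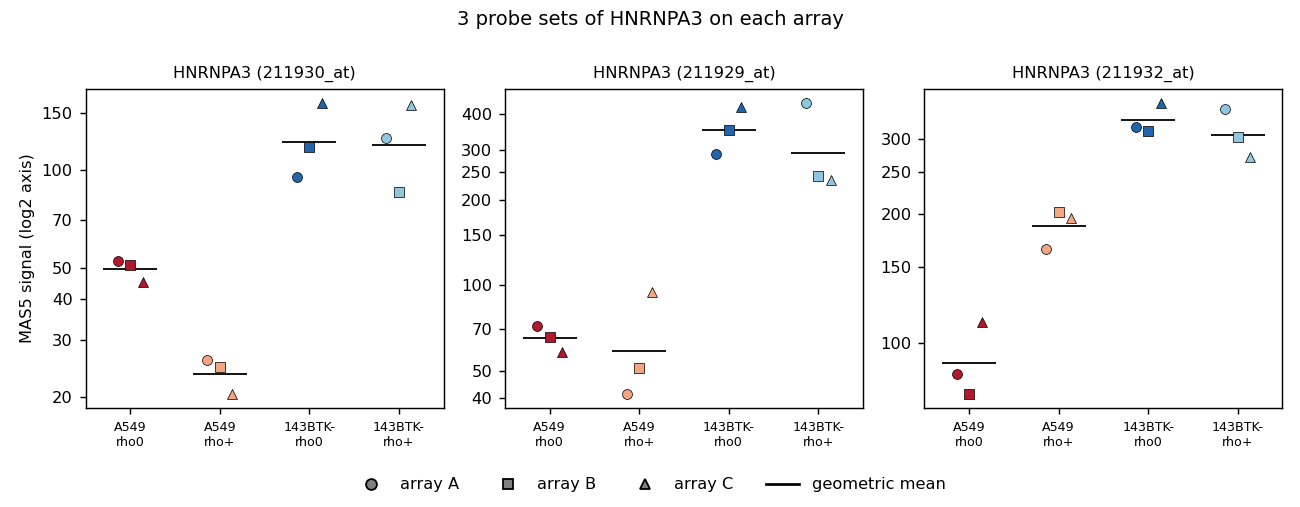
MAS5 signal (log2 axis) of 3 probe sets of HNRNPA3 on each array, with the geometric mean of a group as a line. In A549, rho0 lies above rho+ for the dimmest (left, log2 change 1.06) and below it for the brightest (right, −1.06), while the middle one overlaps there and all 3 overlap in 143BTK-.

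Several other hnRNP genes had A549 rho0 arrays below all A549 rho+ arrays without passing. HNRNPM, which binds GU-rich sites, was at 228, 236 and 417 in A549 rho0, against 456, 439 and 534 in A549 rho+ (−0.75, adjusted p = 0.0793 from limma), HNRNPA0 had −0.63 (adjusted p = 0.0528 from limma), HNRNPU, a scaffold of nuclear RNA, −0.53 (adjusted p = 0.0948 from limma) and HNRNPUL1 −0.45 (adjusted p = 0.128 from limma). HNRNPA1 lay at the other end, at 620, 636 and 389 in A549 rho0, against 417, 309 and 284 in A549 rho+ (0.69, adjusted p = 0.0939 from limma). The brightest probe set of HNRNPH1 had every A549 rho0 array below every A549 rho+ array (−0.32, adjusted p = 0.196 from limma) and overlapped in 143BTK- (0.14). A dimmer one had rho0 above rho+ in 143BTK- (629, 536 and 763, against 437, 443 and 438, 0.53, unadjusted p = 0.027 from limma), and in A549 it had −0.13. The other hnRNP genes by their brightest probe sets (HNRNPA2B1, HNRNPAB, HNRNPC, HNRNPD, HNRNPDL, HNRNPH3, HNRNPK, HNRNPL, HNRNPR and HNRNPUL2) lay between −0.57 (HNRNPR) and 0.23 (HNRNPDL) in A549 and between −0.35 (HNRNPAB) and 0.13 (HNRNPH3) in 143BTK-. After LSM8, the next highest changes in 143BTK- were those of dimmer probe sets of HNRNPDL (0.61) and SF3A2 (0.58), at adjusted p of 0.634 and 0.655 from limma. The 3 lowest changes among the kept probe sets of 143BTK- came from dim ones: HNRNPD (−1.63), HNRNPL (−1.24) and SRSF6 (−1.04), whose brightest partners had −0.17, 0.10 and −0.03.

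Lists of other splicing genes, namely of assembly factors, further snRNP proteins, SR kinases, exon junction proteins and regulators of splice site choice, held 114 genes. In A549 their median log2 change was −0.13, against −0.03 over all genes, and of 86 kept 6 fell (6.98%, against 5.95% of all genes) and 3 rose (3.49%, against 5.19%). In 143BTK- the median was −0.09, against −0.0025, and of 87 kept limma called 0, with 4 lower (4.6%, against 4.86% of all genes) and 0 higher (against 3.81%) at an unadjusted p under 0.05. In the mean change the median was −0.14, against −0.02, and of 85 kept 2 fell (2.35%, against 1.96%) and 1 rose (1.18%, against 1.79%). SNRNP25, of the minor spliceosome, and DDX23, the U5 helicase that releases U1, fell in the mean change (−1.21 ± 0.26 and −0.90 ± 0.22, SE, adjusted p = 0.0212 and 0.0371 from limma), and PCBP2, a poly(C)-binding protein, rose (0.47 ± 0.11, adjusted p = 0.0289 from limma). In A549, PPIH, a partner of PRPF3 and PRPF4 in the tri-snRNP, fell by a log2 change of −0.90 (adjusted p = 0.0174 from limma). The splicing regulator CELF1, the exon junction protein RNPS1 and the RNA-binding protein SFPQ fell there too, at −0.76, −0.94 and −0.92, while the regulator MBNL1 and the cap-binding subunit NCBP2 rose at 0.82 and 0.73. The snRNP assembly genes had medians of 0.01 in A549 (11 kept, 5 below 0), −0.30 in 143BTK- (10 kept, 6 below 0) and −0.16 in the mean change, with no gene lower at the adjusted threshold. In 143BTK-, GEMIN2 of the SMN complex had −1.06 and PRMT5, which methylates Sm proteins, −0.80 (unadjusted p of 0.0102 and 0.00453 from limma).

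Proliferation genes too were lower in A549 rho0. All 20 kept of 21 listed had a log2 change below 0 in A549 (median −1.01, from −1.51 in CDC20 to −0.45 in MCM3). Of these, 4 fell (20%, against 5.95% of all genes). In 143BTK- 15 of 21 were below 0 (median −0.33), against 50.3% of all genes. There limma called 0 of them, and 4 were lower without adjustment (19%, against 4.86% of all genes). In A549 the order of the arrays within a state was the same in both lists, but the overlap of the states was not. Relative to the mean of the line, the proliferation genes had a median log2 signal of −0.63, −1.09 and 0.32 on A549 rho0 A, B and C, against 0.15, 0.26 and 0.99 on rho+ A, B and C, so that rho0 C lay above rho+ A and B. The members had −0.14, −0.16 and −0.05 on rho0 and 0.14, 0.16 and 0.19 on rho+, with no overlap. In 143BTK- the proliferation genes had 0.08, −0.52 and −0.0083 on rho0 A, B and C, against 0.22, 0.27 and −0.05 on rho+. The members had 0.07, −0.13 and 0.07 on 143BTK- rho0, against 0.13, 0.15 and −0.09 on 143BTK- rho+. In both lists 143BTK- rho0 B was lowest and 143BTK- rho+ C next. The part of the proliferation genes in the changes of the splicing genes was not tested.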

How the data were processed

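The authors hybridised RNA of the 12 samples to Affymetrix arrays, computed the MAS5 signal, and normalized by quantiles within each line. The deposited intensity values are these signals on a linear scale, and 12 arrays limit the precision. Here log2 signals, with no offset, were tested with limma 3.58.1 (R 4.3.3, eBayes with an intensity trend), rho0 minus rho+, in each line and over all 12 arrays (mean change and A549 minus 143BTK- difference). Kept were the 13096 (A549) or 14012 (143BTK-) probe sets with the highest mean log2 signal, and 12139 kept in both lines for the joint fit. P-values were adjusted by Benjamini-Hochberg over all kept probe sets, with 0.05 as threshold. A gene was described by its brightest kept probe set. Probe sets of several genes were left out of the members and of the values over genes, but not of the fits. Members and lists were chosen with earlier results of these data known. Named were called members, the 3 highest and lowest changes of a line, other probe sets of those genes and the members in the study's tables, and further genes were named to fill out each role. Scripts were tested on simulated data. Alternatives were other offsets, filters, normalization, probe sets, a replicate block, chromosome centring and leaving out arrays. Figures were drawn with matplotlib 3.10.9 (Python 3.11.15).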

Additional observations from a re-analysis of the deposited data

Results flagged for a closer look

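The effect of the rho0 state on SNRPE and LSM5 differed between the lines by a test of the difference itself. The difference of log2 changes, A549 minus 143BTK-, was −1.07 ± 0.21 (SE, adjusted p = 0.0206 from limma) for SNRPE and −1.80 ± 0.27 (adjusted p = 0.00483 from limma) for LSM5. SNRPE was lower on 3 of 3 A549 rho0 arrays than on any A549 rho+ array and higher on 3 of 3 143BTK- rho0 arrays than on any 143BTK- rho+ array. LSM5 was lower on 3 of 3 A549 rho0 arrays, while the 143BTK- arrays overlapped. The dimmer LSM5 probe sets had differences of −1.72 and −0.33, neither past the threshold (adjusted p of 0.174 and 0.795 from limma), and both had A549 rho0 means, 13.1 and 16.3, under the lowest mean signal kept there, 19.1.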

How the results depend on the processing

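No log2 change of a called member turned round in the comparison that called it. The other members were not followed in this way. Of 407 such values under the alternatives, 268 stayed on their side of the threshold and 139 lost it. In A549 the count of 13 called members was 6 without an intensity trend (5.88% of all probe sets). It was 6 without _x_at and _s_at probe sets (of 45 tested, 9.87% of all), and 2 to 22 with 1 array left out (3.3% to 14.6% of all). In the mean change the count of 8 was 2 without the trend (1.92% of all). It was 4 with no filter on low signals (1.41%), with the replicate block (2.84%) and with chromosome centring (2.28%). It was also 4 without _x_at and _s_at probe sets (of 45 tested, 3.03% of all). Without 143BTK- rho0 B and rho+ C, which was chosen after seeing the data, it was 4 too (3.68%). With 1 array left out it was 2 to 9 (0.827% to 4.53%). The difference count of 2 was 4 at a mean signal of at least 100 (3.6% of all) and 1 without the trend (1.07%). With 1 array left out it was 1 to 3 (0.504% to 2.56%). The cause of these shifts was not tested. The replicate letters paired the arrays weakly at most. Correlations of same-letter deviations were 0.107, 0.05 and 0.09 in A549, above those of unlike letters (−0.105 to 0.019). In 143BTK- they were 0.359, −0.11 and −0.02, within the range of unlike letters (−0.469 to 0.389). With the letter as a block, 12 members were called in A549 (11% of all probe sets), 0 in 143BTK- (0.00714%), 4 in the mean change (2.84%) and 2 in the difference (1.54%). Medians moved as follows. Over all kept probe sets, those in A549 were −0.13 (HNRNP), −0.064 (SF3B) and 0.065 (SRSF), that in 143BTK- was −0.036 (SF3B) and that of the mean change −0.078 (LSM). With 64 added, LSM in A549 was −0.14, and at a mean signal of at least 100 LSM in the mean change was 0.033. Without 143BTK- rho0 B and rho+ C, LSM and SF3B in 143BTK- were at −0.045 and −0.043. With 1 array left out, the A549 medians ran from −0.41 to −0.18 (LSM), −0.13 to 0.17 (SF3B), −0.58 to −0.40 (SNRP) and −0.21 to −0.0035 (SRSF). Those of 143BTK- ran from −0.063 to 0.14 (HNRNP), −0.10 to 0.15 (LSM), −0.41 to −0.11 (SF3A) and −0.31 to −0.13 (SF3B), and those of the mean change from −0.27 to −0.071 (LSM) and −0.13 to 0.0097 (SF3B). The remaining 379 of 400 medians moved by less than the spread between arrays, but those of SRSF in 143BTK- (0.27 without rho0 B, 0.04 without rho+ B), of LSM in 143BTK- (−0.029 with chromosome centring) and of U2AF in A549 (0.089 over all kept probe sets) changed sign among them, and that of SF3A in A549, 0.23, was 0.031 without rho+ B. Probe sets near the lowest signals kept, 19.1 in A549 and 12.6 in 143BTK-, are the least precise.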

Other observations

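Probe sets that the annotation gives to several genes were not members, although they were fitted and counted among all probe sets. Both probe sets shared by SNRPN, the Sm-N gene, and SNURF alone were higher in A549 rho0 with no overlap. The brighter was at 1627, 1846 and 1759 in A549 rho0, against 1059, 1136 and 1030 in A549 rho+ (log2 change 0.70, adjusted p = 0.0127 from limma), and the dimmer at 703, 439 and 474, against 316, 314 and 182 (1.01, adjusted p = 0.038 from limma). In 143BTK- they had 0.09 and 0.05. The other probe sets that list SNRPN, together with many further genes, overlapped between the A549 groups. The dimmest of them was not kept, and the others had log2 changes of 0.27 and 0.09 in A549 (adjusted p of 0.57 and 0.9 from limma). HNRNPA3 with its pseudogene fell in A549 by 1 of 3 probe sets (254, 241 and 353 in A549 rho0, against 476, 538 and 478 in A549 rho+, log2 change −0.83, adjusted p = 0.0259 from limma). SRSF2 had −0.17, −0.14 and −0.00044 and SRSF9 −0.08 and 0.0055 in A549, none past the threshold. SRSF2 too was low on 143BTK- rho0 B and rho+ C, with 2189, 784 and 3429 in 143BTK- rho0 and 2890, 2480 and 878 in 143BTK- rho+ for one of its probe sets.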
